A study of Mus musculus with 12 samples.

Results

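Aminoacyl-tRNA synthetases are the enzymes that join each amino acid to its transfer RNA, and the levels of their messenger RNAs were followed here in mouse CD8+ T cells. The genes were taken from a list of 38: 20 cytosolic enzymes or subunits, 16 mitochondrial enzymes, and the scaffold proteins Aimp1 and Aimp2. A gene was used where the array's probe annotation gave a row its symbol and no other. By that rule 35 of the 38 were measured among 22184 genes in all, 18 cytosolic, 16 mitochondrial and 1 scaffold gene. The rows of Aars and Aimp2 carry a further symbol each (Exosc6 and Eif2ak1) and were not used, and no row carried the symbol Dars. Mars is listed in the annotation under its newer symbol Mars1. Nars2 and Aimp1 had 2 rows each, which were averaged, so the 35 genes rest on 37 rows.

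The cells were CD8+ lymphocytes from C57BL/6 mouse spleen, enriched by removing other cell types and treated for 6 h. The 4 groups held 3 arrays each. They were PBS as mock treatment, PBS plus IFN-4a (an interferon), anti-CD3 antibody, which engages the T cell receptor complex, and anti-CD3 plus IFN-4a. Below, both PBS groups are the resting cells and both anti-CD3 groups the stimulated cells. The labels number the replicates without naming animals or cultures. The p-values therefore set a difference of means only against the variation between arrays within groups, and that variation may be technical.

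Cytosolic synthetases charge the transfer RNAs used by ribosomes in the cytoplasm, and a separate set of nuclear genes encodes the enzymes imported into mitochondria. Gars and Kars serve both compartments. Several cytosolic enzymes sit together in the multi-tRNA synthetase complex, which the scaffold proteins hold together. A T cell engaged through its receptor increases protein synthesis and grows before it divides. Many cytosolic synthetase genes are known targets of the transcription factor ATF4, and Wars, the gene of the tryptophan enzyme, is known as an interferon-inducible gene.

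Values came as logarithms, read here as log2, and every row had been centred on its median over the 12 arrays. A value of 0 is therefore that gene's own median, and levels cannot be compared between genes. No source used here gives the base of the logarithm, and with a natural log every fold below would be larger. Decimal steps of the values do show which rows stood at 8 or above on the log scale before centring, on at least their 6 highest arrays. This held for 30.9% of all genes, for all 18 measured cytosolic synthetase genes, for 9 of the 16 mitochondrial genes and for Aimp1. It also held for all 6 measured CD8+ T cell markers (Cd8a, Cd8b1, Cd3e, Cd3d, Cd3g and Cd2, of which Cd3d, Cd3g and Cd8b1 fell with anti-CD3) and for 1 of 22 measured markers of other blood cells, Eomes, which activated CD8+ T cells express too. The lowest correlation between arrays of a group was 0.734 across genes and the highest between groups was 0.538. Each change below is a difference between means of 3 arrays on the log2 scale. A gene was said to rise or fall where limma's moderated test gave a Benjamini-Hochberg adjusted p under 0.05 over all 22184 genes. In such bulk samples, fewer cells expressing a gene and less RNA per cell cannot be told apart.

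**Figure D1:**
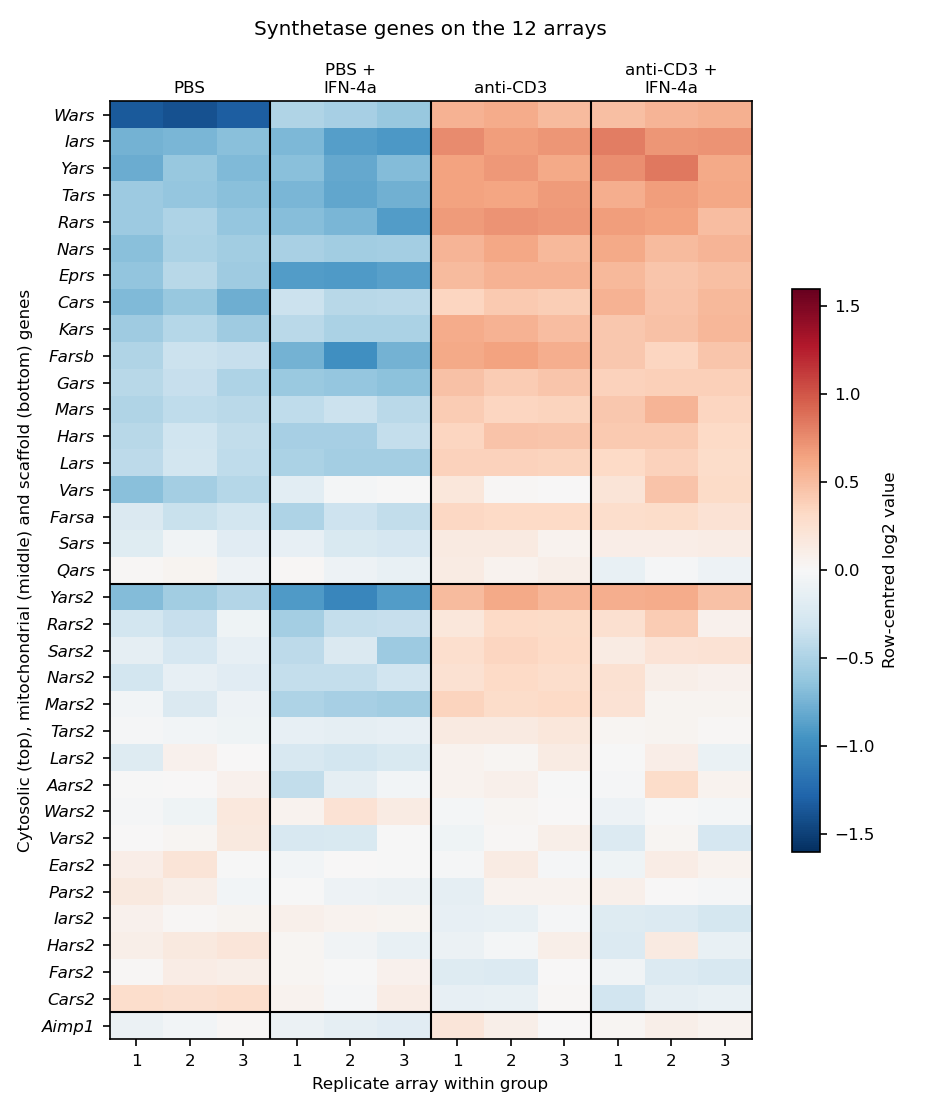
Row-centred log2 values (colour) of the 35 measured genes (rows) on the 12 arrays (columns, 3 per group), with cytosolic genes on top, mitochondrial genes in the middle and Aimp1 at the bottom, each class ordered by its change with anti-CD3. Nearly all cytosolic genes are low on the 6 resting arrays and high on the 6 stimulated arrays, with Qars the exception, while most mitochondrial genes vary little.

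Anti-CD3 without IFN-4a was compared with PBS to ask what stimulation alone does. Cytosolic synthetase genes rose together. Of the 18 measured, 17 rose and none fell, with a median change of 1.05, where the median over all genes was -0.036. Over all genes 13.8% rose and 18.0% fell. Among the 6861 genes at 8 or above before centring 32.9% rose and 34.2% fell, with a median of -0.017. All 18 cytosolic genes belong to these. Of the 16 mitochondrial genes 6 rose, 2 fell and 8 did not pass, with a median of -0.00031. Over both classes and Aimp1, 23 of 35 genes rose and 2 fell. Changes of 1 or more on the log2 scale, a doubling, were seen in 10 cytosolic genes and 1 mitochondrial gene, where 2.54% of all genes rose that far.

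The classes also differ in signal. On all 12 arrays 17 cytosolic genes (all but Cars) but only 4 mitochondrial genes, Hars2, Iars2, Lars2 and Tars2, stood at 8 or above before centring. Yars2, Rars2, Cars2, Fars2 and Vars2 did so on their highest arrays alone. A gene can therefore reach this level through the group where it is high, and counts over the genes that reach it give no measure of the class. The part of signal strength in the difference between the classes was not tested.

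Wars (Entrez 22375), for tryptophan, rose most. It stood at -1.35, -1.40 and -1.315 on the PBS arrays and at 0.55, 0.59 and 0.51 on the anti-CD3 arrays. The stimulated arrays were all higher, with a wide gap between the groups. The change was 3.74-fold (log2 1.90, SE 0.054, adjusted p = 1.09e-11), which placed Wars at position 127 of 22184 genes ordered from the highest change. Quantile normalization gave a smaller log2 change of 1.44 that still passed (adjusted p = 2.61e-10, and at most 4.93e-08 over 20 alternatives).

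The next largest changes were those of the isoleucine, tyrosine, threonine, arginine and asparagine enzymes. Iars (Entrez 105148), for isoleucine, stood at -0.76, -0.73 and -0.67 with PBS and at 0.75, 0.67 and 0.70 with anti-CD3. It rose 2.69-fold (log2 1.43, SE 0.062, adjusted p = 5.75e-10). Yars (Entrez 107271), for tyrosine, went from -0.79, -0.60 and -0.71 to 0.65, 0.69 and 0.60, a 2.54-fold rise (log2 1.35, SE 0.071, adjusted p = 4.15e-09). In these genes the spread within a group was small beside the distance between groups. Tars (Entrez 110960), for threonine, went from -0.58, -0.62 and -0.67 to 0.64, 0.63 and 0.68 (log2 1.27, SE 0.051, adjusted p = 2.77e-10). Rars, for arginine, rose by 1.26 and Nars, for asparagine, by 1.14, again with no overlap between the groups' arrays. Without overlap and higher were 16.7% of all genes in this comparison, against all 18 cytosolic genes.

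Enzymes both inside and outside the multi-tRNA synthetase complex rose. Of the 7 measured members of the complex 6 rose, with a median of 1.08, and of the 11 enzymes outside it all 11 rose, with a median of 1.01. In the complex, Eprs, which encodes the bifunctional enzyme for glutamate and proline, rose by 1.09, as did Kars, for lysine, by 1.08. Mars, for methionine, rose by 0.81 and Lars, for leucine, by 0.74. Outside it, Cars, for cysteine, rose by 1.09, Farsb and Farsa, the beta and alpha subunits of the phenylalanine enzyme, by 1.01 and 0.62, Gars, for glycine, by 0.87, Hars, for histidine, by 0.80, and Vars, for valine, by 0.63.

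The lower end of the class was set by Sars and Qars. Sars, for serine, stood at -0.19, -0.05 and -0.18 with PBS and at 0.14, 0.15 and 0.05 with anti-CD3, a rise of 0.25 (SE 0.059, adjusted p = 0.00373). Qars (Entrez 97541), for glutamine, was the 1 measured cytosolic gene that did not pass. Its values were 0.019, 0.045 and -0.084 with PBS and 0.13, 0.050 and 0.090 with anti-CD3. The groups did not overlap, but the highest PBS and the lowest anti-CD3 arrays were close. The difference was 0.096 (95% confidence interval -0.029 to 0.22, adjusted p = 0.26), which overlaps the interval of Sars (0.13 to 0.38).

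Aimp1, whose protein scaffolds the arginine enzyme in the complex, stood at 0.14 (adjusted p = 0.101). Its 2 rows gave 0.026 and 0.24. The call was gained without the third anti-CD3 array (0.18, adjusted p = 0.0364), under quantile normalization (adjusted p = 0.0421) and among genes at 8 or above alone (adjusted p = 0.0384), over a range of adjusted p from 0.0364 to 0.880 in 20 alternatives. Eef1e1, the gene of a further scaffold protein of the complex, rose by 2.17 on the log2 scale (SE 0.084, adjusted p = 2.06e-10).

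Promoter windows were searched for known response elements. RefSeq windows of GRCm38.p6 were at hand for 26 of the 35 genes (11 cytosolic, 14 mitochondrial and Aimp1) in 28 windows, and the 250 bases before the start were searched on both strands. The genes with no window were Cars, Hars, Hars2, Lars, Nars, Pars2, Rars, Vars and Wars. The motifs were the C/EBP-ATF response element TGATGNAA, bound by ATF4, the E-box CACGTG, bound by MYC, the interferon-stimulated response element and the gamma-activated site TTCNNNGAA. No matches of different motifs shared a window. The C/EBP-ATF element was found in Gars and Tars, 2 of 11 cytosolic windows, in 0 of 15 mitochondrial windows and in 3.45% of all 32851 windows. The E-box was found in Farsb and Iars, again 2 of 11 cytosolic and 0 of 15 mitochondrial windows, and in 6.02% of all windows. The interferon-stimulated element was found in Qars alone among the genes searched (2.98% of all windows) and the gamma-activated site in Kars and Nars2 (7.02% of all windows). The 100 bases before the start of 4 raised cytosolic genes are shown because they hold the ATF4 or MYC letters, with the match in capitals, read 5′ to 3′ on the gene's strand.
Tars (chr15:11399659-11399758, minus strand): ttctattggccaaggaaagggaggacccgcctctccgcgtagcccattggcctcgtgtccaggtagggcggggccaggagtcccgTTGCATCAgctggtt
Gars (chr6:55037901-55038000, plus strand): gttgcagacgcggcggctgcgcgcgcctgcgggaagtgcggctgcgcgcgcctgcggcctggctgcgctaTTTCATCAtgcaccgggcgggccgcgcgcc
Iars (chr13:49682030-49682129, plus strand): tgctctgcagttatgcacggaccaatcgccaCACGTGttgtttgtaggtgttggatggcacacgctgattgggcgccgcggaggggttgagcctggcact
Farsb (chr1:78488898-78488997, minus strand): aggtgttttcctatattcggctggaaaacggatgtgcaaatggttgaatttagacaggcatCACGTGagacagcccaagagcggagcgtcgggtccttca
In Tars the match lies 15 to 8 bases before the start, in Gars 30 to 23, in Iars 69 to 64 and in Farsb 39 to 34. These are matches of letters in the reference, not measured sites. Eprs, Farsa, Mars, Sars and Yars rose without any of the 4 motifs in the window.

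Mitochondrial synthetase genes went in different directions. Yars2 (Entrez 70120), the mitochondrial tyrosine enzyme, rose most. It stood at -0.69, -0.55 and -0.47 with PBS and at 0.51, 0.60 and 0.53 with anti-CD3, a 2.17-fold rise (log2 1.12, SE 0.068, adjusted p = 1.67e-08). The other raised genes were Rars2, for arginine, by 0.51, Sars2, for serine, by 0.49, Nars2, for asparagine, by 0.49, Mars2, for methionine, by 0.44 and Tars2, for threonine, by 0.20. The 2 rows of Nars2 gave 0.70 and 0.28.

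Cars2 (Entrez 71941), for cysteine, fell. It stood at 0.28, 0.26 and 0.28 with PBS and at -0.13, -0.12 and 0.019 with anti-CD3, a difference of -0.35 (SE 0.065, adjusted p = 0.000666). All 3 stimulated arrays lay below the resting ones, as was so for 24.5% of all genes. Fars2, for phenylalanine, fell by 0.22 (adjusted p = 0.0360), a call that ended without the second or the third PBS array (adjusted p = 0.103 and 0.0902), without the first or the second anti-CD3 array (0.127 and 0.147), with array medians set to 0 (0.0587), with the 2 groups alone (0.0597) and under quantile normalization (0.0791). Aars2, Ears2, Hars2, Iars2, Lars2, Pars2, Vars2 and Wars2 did not pass, with changes from -0.16 (Hars2) to 0.12 (Lars2). Iars2, at -0.13 (adjusted p = 0.0666), passed without the third anti-CD3 array (adjusted p = 0.0309), with array weights (0.0285) and among genes at 8 or above alone (0.0215), over a range from 0.0215 to 0.200.

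**Figure D2:**
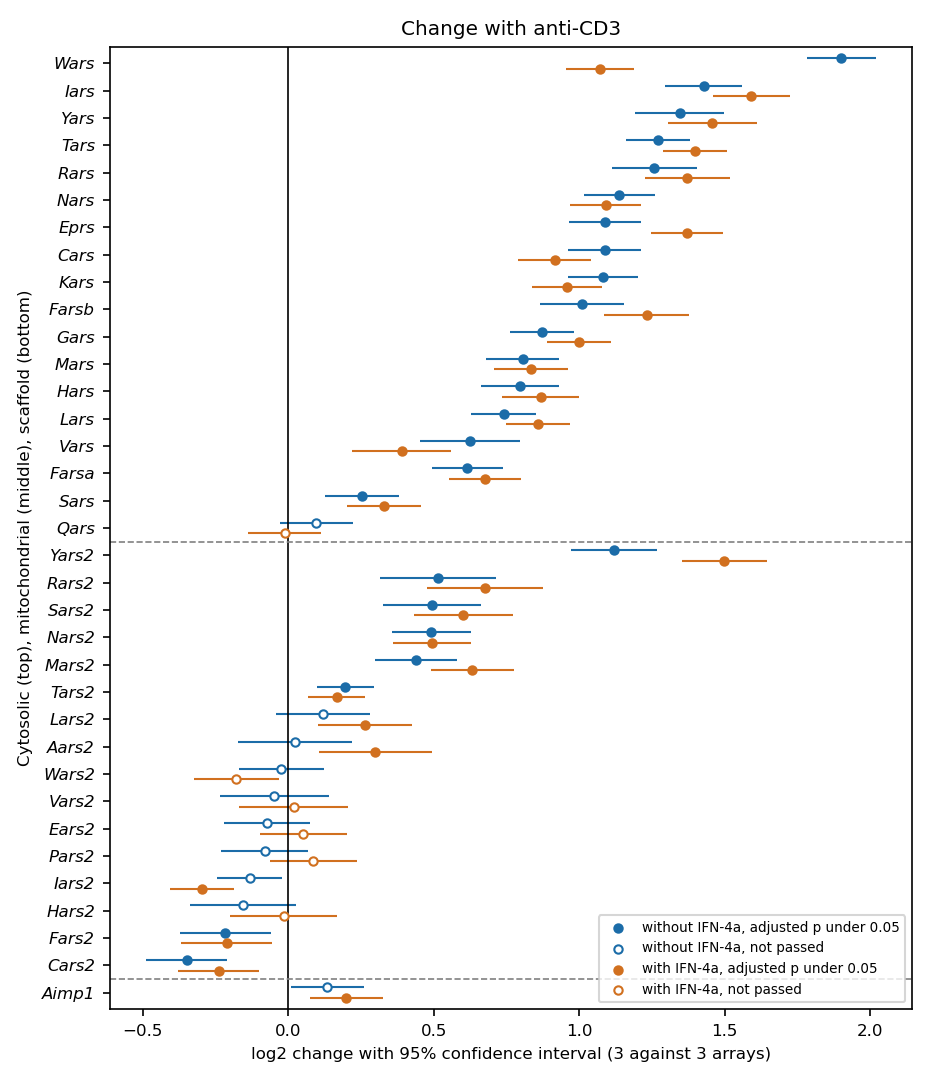
Change with anti-CD3 (x axis, log2, with 95% confidence interval) of each measured gene (y axis), without IFN-4a in blue and with IFN-4a in orange, from 3 against 3 arrays. Filled points have an adjusted p under 0.05. The cytosolic genes run from 0.10 for Qars to 1.90 for Wars without IFN-4a, and the mitochondrial genes from -0.35 for Cars2 to 1.12 for Yars2.

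Anti-CD3 with IFN-4a was then compared with PBS with IFN-4a, whose means come from other arrays than those of the first comparison. Both tests share each gene's spread, estimated over all 12 arrays, so their p-values are not independent. Cytosolic synthetase genes again rose together. Of 18 genes 17 rose, all but Qars, with a median of 0.98 and with no overlap between the groups' arrays (15.9% of all genes were higher without overlap), and of the 16 mitochondrial genes 8 rose and 3 fell, with a median of 0.13. Over all 35 genes 26 rose and 3 fell. Over all genes 12.8% rose and 14.9% fell, and the median was -0.035. Among genes at 8 or above before centring 30.5% rose and 32.7% fell, with a median of -0.031.

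Iars led here, at -0.72, -0.89 and -0.92 with PBS and IFN-4a and at 0.82, 0.71 and 0.72 with anti-CD3 and IFN-4a. It rose 3.01-fold (log2 1.59, SE 0.062, adjusted p = 1.89e-10). Yars2 followed among all 35 genes, rising 2.83-fold from -0.91, -1.05 and -0.90 to 0.58, 0.59 and 0.47 (log2 1.50, SE 0.068, adjusted p = 9.28e-10). Yars rose by 1.46, Tars by 1.40, and Rars and Eprs by 1.37 each. Wars rose by 1.07, less than these. Qars stood at -0.012 (95% confidence interval -0.14 to 0.11, adjusted p = 0.925).

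Of the mitochondrial genes, Rars2 rose by 0.68, Mars2 by 0.63, Sars2 by 0.60, Nars2 by 0.49 and Tars2 by 0.17. Aars2, for alanine, at 0.30 (adjusted p = 0.0222) and Lars2, for leucine, at 0.26 (adjusted p = 0.0158) rose less firmly. The Aars2 call ended without the first array of PBS plus IFN-4a (adjusted p = 0.112), without the second array of anti-CD3 plus IFN-4a (0.110) and with the 2 groups alone (0.0713). The Lars2 call ended without the second array of either group (0.0563 for PBS with IFN-4a, 0.0772 for anti-CD3 with IFN-4a). Iars2 fell by 0.30 (SE 0.051, adjusted p = 0.000401), from 0.086, 0.055 and 0.038 to -0.21, -0.22 and -0.28. Its arrays did not overlap, as was so in this direction for 22.4% of all genes.

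Cars2 fell by 0.24 (adjusted p = 0.0117), a call that ended without the third array of PBS plus IFN-4a (0.0536) and without the first array of anti-CD3 plus IFN-4a (0.0629). Fars2 fell by 0.21 (adjusted p = 0.0452), and this call held in 8 of 20 alternatives, with adjusted p from 0.0143 to 0.170. It ended without any of the PBS arrays or the first anti-CD3 array (0.0505 to 0.0554), without any array of PBS plus IFN-4a (0.0647 to 0.125), without the second or the third array of anti-CD3 plus IFN-4a (0.135 and 0.170), with array medians set to 0 (0.0726), under quantile normalization (0.0805) and with the replicate number as a block (0.0576). Wars2 stood at -0.18 (adjusted p = 0.0689) and passed without the third PBS array (0.0324), without the first array of PBS plus IFN-4a (0.0497) and with array weights (0.0497). Aimp1 rose by 0.20 (adjusted p = 0.0181), which ended with the row of highest mean (0.11, adjusted p = 0.475), without the third array of PBS plus IFN-4a (0.0685) and without the second array of anti-CD3 plus IFN-4a (0.0611).

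Taking all arrays at once, the lowest of the 6 stimulated arrays lay above the highest of the 6 resting arrays in 17 of 18 cytosolic genes, all but Qars. This held for 6 of 16 mitochondrial genes (Mars2, Nars2, Rars2, Sars2, Tars2 and Yars2) and for 10.8% of all genes. The reverse held for Iars2 and for 11.4% of all genes.

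Cytosolic and mitochondrial enzymes for the same amino acid were compared for 13 amino acids, with Farsa and Farsb averaged. The bifunctional Eprs was not paired with Ears2, for glutamate, or Pars2, for proline. With anti-CD3 alone Eprs changed by 1.09, Ears2 by -0.073 and Pars2 by -0.081. In all 13 the cytosolic gene rose with anti-CD3 without IFN-4a. The mitochondrial partner also rose for 6 (methionine, asparagine, arginine, serine, threonine and tyrosine), fell for 2 (cysteine and phenylalanine) and did not pass for 5 (histidine, isoleucine, leucine, valine and tryptophan). The cytosolic change was larger for 12 of 13, with a median difference of 0.74. The widest gap was that of tryptophan, where Wars changed by 1.90 and Wars2 by -0.024 (95% confidence interval of the Wars2 change -0.17 to 0.12), followed by isoleucine with 1.43 for Iars and -0.13 for Iars2. Serine was reversed, with 0.25 for Sars and 0.49 for Sars2. In each of these pairs the difference between the 2 genes on the stimulated arrays did not overlap that on the resting arrays. These differences between partners are given as a description, without a test.

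With IFN-4a present the cytosolic change was larger for 11 of 13 amino acids, with a median difference of 0.70. Serine was again reversed, with 0.33 for Sars and 0.60 for Sars2. For tyrosine the partners were close, with 1.46 for Yars and 1.50 for Yars2, and their arrays overlapped.

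**Figure D3:**
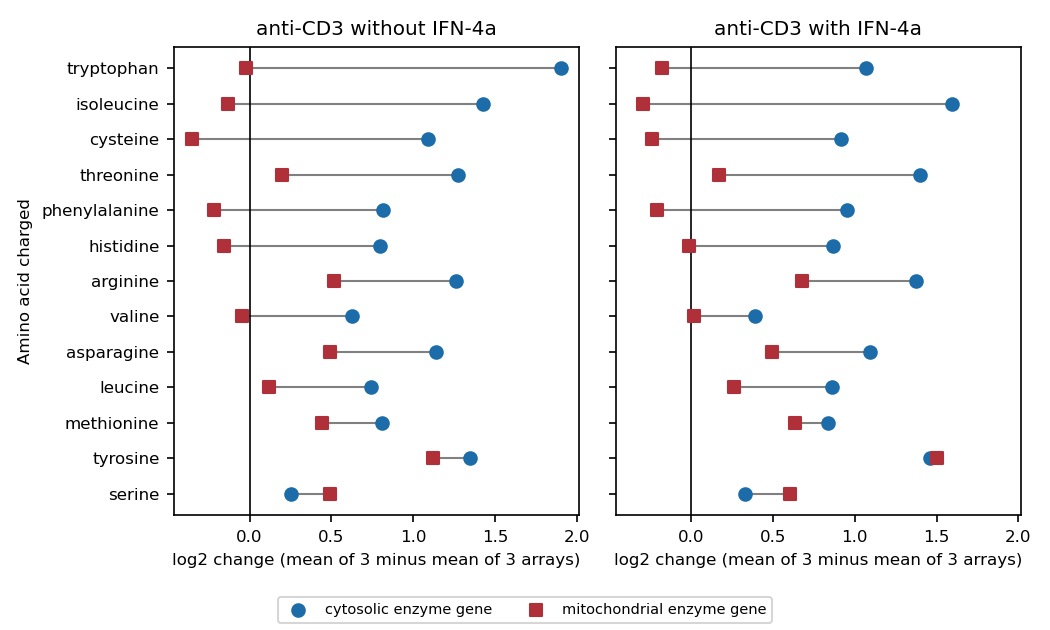
Change with anti-CD3 (x axis, log2 difference of group means, 3 against 3 arrays) of the cytosolic (blue circles) and mitochondrial (red squares) synthetase genes for each of 13 amino acids (y axis), without IFN-4a on the left and with it on the right. The circles lie to the right of the squares for 12 amino acids on the left and 11 on the right, with serine reversed on both sides.

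Averaged within each array, the cytosolic genes lay at -0.52 ± 0.042 (SD, n = 3) with PBS and at 0.45 ± 0.013 with anti-CD3. The mitochondrial genes lay at -0.037 ± 0.030 and 0.11 ± 0.042. The cytosolic minus the mitochondrial mean was -0.53 to -0.43 on the PBS arrays, -0.36 to -0.28 with PBS and IFN-4a, 0.29 to 0.39 with anti-CD3 and 0.36 to 0.42 with both. The stimulated arrays thus lay apart from the resting ones, and the PBS arrays apart from those of PBS with IFN-4a. With PBS and IFN-4a the cytosolic mean was -0.53 ± 0.027 and the mitochondrial mean -0.21 ± 0.018, so the mitochondrial mean differed more from PBS. Without Wars the cytosolic means were -0.51, -0.42 and -0.49 with PBS and -0.50, -0.55 and -0.54 with PBS and IFN-4a. Leaving Wars out brought these groups closer, though they still lay apart.

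PBS with IFN-4a was compared with PBS to ask what the interferon does in resting cells, a comparison that shares the PBS arrays with that of anti-CD3 alone. The synthetase genes that passed moved both ways. Of 35 genes 3 rose (Wars, Vars and Cars, all cytosolic), 6 fell (Farsb, Eprs, Gars, Mars2, Yars2 and Cars2) and 26 did not pass. Over all genes 4.25% rose and 8.37% fell. Among all genes at 8 or above 17.8% fell, close to the 17.1% of the 35. At an unadjusted p under 0.05 there were 19 of 35 (54.3%), where 26.5% of all genes and 42.5% of genes at 8 or above were under it. The median change was -0.087 for cytosolic and -0.19 for mitochondrial genes, beside -0.010 over all genes and -0.066 over genes at 8 or above. Above 0 lay 6 of 18 cytosolic and 2 of 16 mitochondrial genes, beside 2292 of 6861 genes at 8 or above.

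Wars rose most, from -1.35, -1.40 and -1.315 to -0.48, -0.53 and -0.61. The arrays of the groups were far apart, and 12.1% of all genes were higher without overlap. The rise was 1.76-fold (log2 0.81, SE 0.054, adjusted p = 1.85e-07). Quantile normalization gave 0.51 (adjusted p = 1.37e-05), and the call held in all 20 alternatives. Vars went from -0.66, -0.55 and -0.45 to -0.16, -0.037 and -0.010, a 1.40-fold rise (log2 0.48, SE 0.079, adjusted p = 0.00115). Cars went from -0.71, -0.61 and -0.78 to -0.35, -0.45 and -0.43, a 1.23-fold rise (log2 0.29, SE 0.058, adjusted p = 0.00449). Of their mitochondrial partners, Wars2 stood at 0.12 (95% confidence interval -0.030 to 0.26, adjusted p = 0.305), Vars2 at -0.23 (95% confidence interval -0.42 to -0.043, adjusted p = 0.104), and Cars2 fell.

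Farsb fell from -0.48, -0.34 and -0.37 to -0.75, -0.98 and -0.76 (log2 -0.43, SE 0.067, adjusted p = 0.000810). Eprs fell from -0.64, -0.44 and -0.57 to -0.90, -0.91 and -0.87 (log2 -0.34, SE 0.057, adjusted p = 0.00131). Mars2 fell by 0.41 (adjusted p = 0.000999) and Yars2 by 0.38 (adjusted p = 0.00227). These 4 calls held in every alternative run, and the arrays of both groups did not overlap. Without overlap and lower were 18.7% of all genes in this comparison.

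The remaining decreases were less firm. Gars fell by 0.19 (adjusted p = 0.0285), which ended without the first or the second PBS array (0.0560 and 0.108), without any array of PBS plus IFN-4a (0.0516 to 0.0829), under quantile normalization (0.166) and with the 2 groups alone (0.0817). Cars2 fell by 0.22 (adjusted p = 0.0384), which ended without any PBS array (0.0803 to 0.0936), without the first or the second array of PBS plus IFN-4a (0.0933 and 0.146), without the second anti-CD3 array (0.0503) and under quantile normalization (0.0805). Other genes below 0 passed in some alternatives. Lars2, at -0.22 (adjusted p = 0.0734), passed without the first PBS array (0.0150), Sars2, at -0.22 (adjusted p = 0.0811), without the second array of PBS plus IFN-4a (0.0169), and Vars2 without the third (0.0387). Rars passed with the replicate number as a block (adjusted p = 0.0405). With genes at 8 or above alone, 10 of the genes fell, the added ones being Lars, Lars2, Rars, Tars and Vars2. Yars2, Cars2 and Vars2 among the 10 reached that level on their highest arrays alone, so the count gives no measure of the members.

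**Figure D4:**
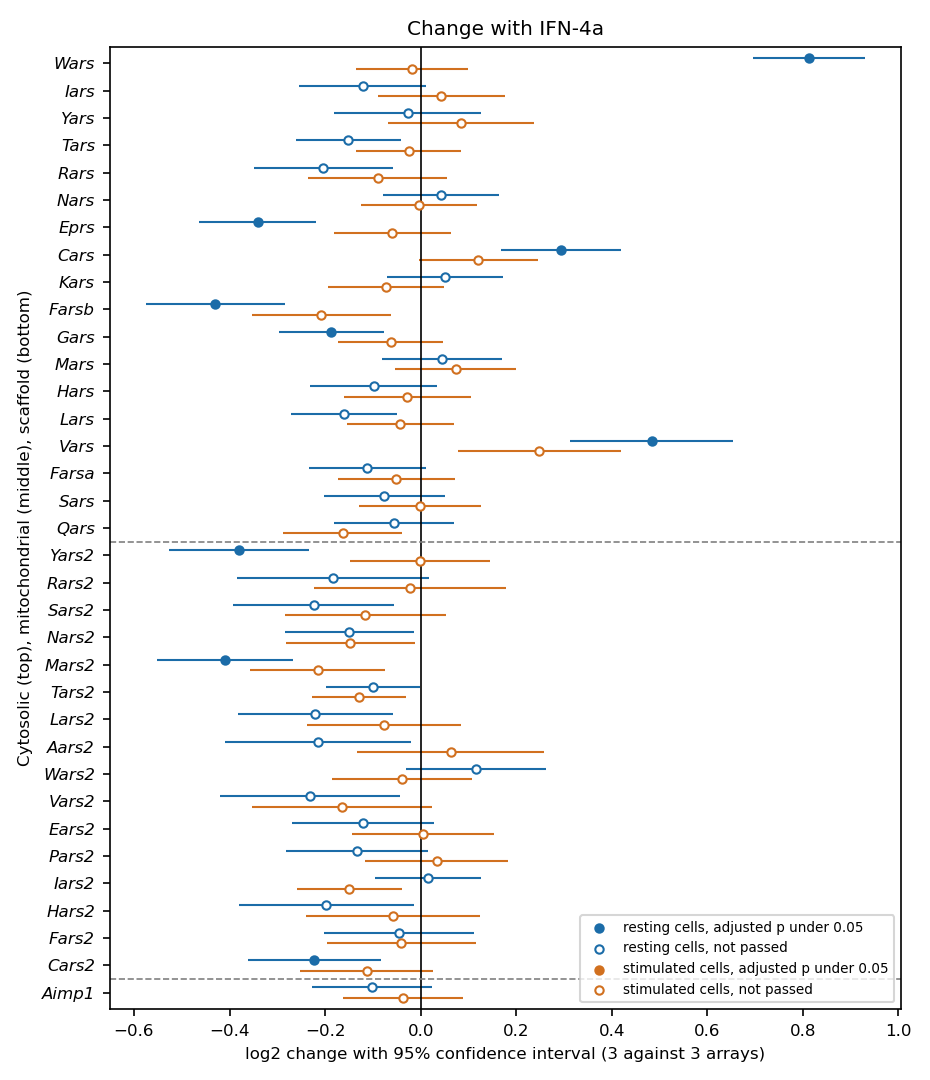
Change with IFN-4a (x axis, log2, with 95% confidence interval) of each measured gene (y axis), in resting cells in blue and in stimulated cells in orange, from 3 against 3 arrays. Filled points have an adjusted p under 0.05. In resting cells Wars lies apart at 0.81 and most mitochondrial genes lie below 0, and in stimulated cells no point is filled.

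Anti-CD3 with IFN-4a was compared with anti-CD3 alone for the same question in stimulated cells, on arrays that both anti-CD3 comparisons also use. None of the 35 genes passed limma's test, where 2.01% of all genes rose and 1.46% fell. At an unadjusted p under 0.05 there were 7 of 35, where 15.1% of all genes and 26.4% of genes at 8 or above were under it. Of these Vars was higher and Farsb, Qars, Iars2, Mars2, Nars2 and Tars2 were lower. The median change was -0.026 for cytosolic and -0.067 for mitochondrial genes, beside -0.0024 over all genes and -0.053 over genes at 8 or above.

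Vars stood at 0.18, 0.022 and 0.010 with anti-CD3 and at 0.20, 0.45 and 0.31 with anti-CD3 and IFN-4a. The groups did not overlap, as in 9.02% of all genes in this direction, though their nearest arrays were close. The difference was 0.25 (95% confidence interval 0.078 to 0.42, adjusted p = 0.126), and it passed with genes at 8 or above alone (adjusted p = 0.0426), over a range from 0.0426 to 0.350. Mars2 stood at -0.22 (adjusted p = 0.107) and passed without the first array of anti-CD3 plus IFN-4a (0.0462) and with array weights (0.0485), over a range from 0.0462 to 0.295. Farsb stood at -0.21 (adjusted p = 0.133) and passed with genes at 8 or above alone (0.0440), over a range from 0.0440 to 0.319.

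Wars stood close together in the stimulated groups, at 0.55, 0.59 and 0.51 with anti-CD3 and at 0.48, 0.55 and 0.565 with anti-CD3 and IFN-4a. These arrays overlapped. The difference was -0.018 (95% confidence interval -0.14 to 0.099, adjusted p = 0.929), which leaves out a change of the size seen in resting cells.

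The interaction tests this difference itself, by subtracting the IFN-4a change of the resting cells from that of the stimulated cells. Wars was the only one of the 35 genes to pass, at -0.83 (SE 0.077, 95% confidence interval -0.996 to -0.665, adjusted p = 4.01e-05). Over all genes 0.298% were higher and 0.645% lower in this test. The value was -0.50 under quantile normalization (adjusted p = 0.00327, the highest over 19 alternatives). Relative to PBS, Wars was 3.69-fold higher with anti-CD3 and IFN-4a together (log2 1.88), where the changes with each alone, 1.90 and 0.81, add up to 2.71. The smaller rise of Wars with anti-CD3 when IFN-4a was present, 1.07 against 1.90, is the same interaction read the other way.

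Yars2 and Eprs came next by size in the other direction. Yars2 stood at 0.38 in the interaction (adjusted p = 0.102) and Eprs at 0.28 (adjusted p = 0.161). Both passed with genes at 8 or above alone (0.0253 and 0.0431). Yars2 reached that level on its highest arrays alone, so its gained call is no support. Yars2 and Eprs had both fallen with IFN-4a in resting cells. With anti-CD3 alone their arrays stood at 0.51, 0.60 and 0.53 for Yars2 and at 0.51, 0.55 and 0.56 for Eprs. With IFN-4a added they stood at 0.58, 0.59 and 0.47 and at 0.52, 0.44 and 0.48.

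**Figure D5:**
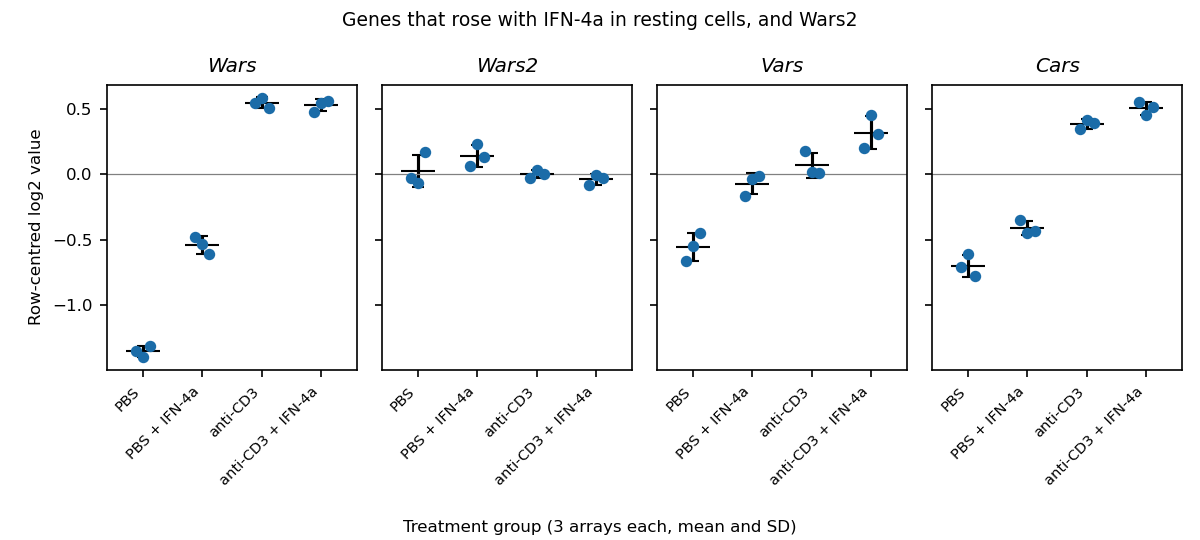
Row-centred log2 values (y axis) of Wars, its mitochondrial partner Wars2, Vars and Cars in the 4 groups (x axis), with each array as a point, each group's mean of 3 arrays as a line and bars for the SD. Wars climbs from a mean of -1.35 with PBS to -0.54 with PBS and IFN-4a, and stands at 0.55 and 0.53 in both stimulated groups.

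Over the 12 arrays, the genes most like Wars among all tested were Ppa1 (Pearson r = 0.994), Rel (0.991), Tnfrsf1b (0.991), Adamts6 (0.989) and Psma3 (0.988). Ppa1 encodes an inorganic pyrophosphatase, Rel a subunit of NF-kappaB, Tnfrsf1b a receptor of tumour necrosis factor and Psma3 a proteasome subunit. Among synthetase genes Cars was the most like Wars (0.976), followed by Kars (0.941) and Nars (0.938), while Wars2 stood at -0.33 and Cars2 at -0.91. Wars lay higher on all 6 stimulated arrays than on all 6 resting arrays, and any gene with such a step correlates with it. All these values rest on the same 12 arrays and are given as a description.

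Other genes of transfer RNA charging and delivery were taken from a list of 16, of which 13 were measured. With anti-CD3 alone 7 rose and 1 fell, with a median of 0.22, where 13.8% of all genes rose and 18.0% fell. Eef1e1 rose most, followed by Gatc, a subunit of the mitochondrial glutamyl-tRNA amidotransferase, by 0.67 and Tufm, the mitochondrial elongation factor Tu, by 0.56, while Pstk, the kinase that prepares selenocysteine transfer RNA, fell by 0.51. With IFN-4a present 8 rose and none fell (12.8% and 14.9% of all genes), with a median of 0.29, and Eef1e1 rose by 2.38. IFN-4a in resting cells lowered 4 of them (Pstk by 0.49, Eef1e1 by 0.34, Sepsecs by 0.27 and Dtd1 by 0.20) and raised none, where 8.37% of all genes fell and 4.25% rose. In stimulated cells none passed limma's test, and 2 had an unadjusted p under 0.05.

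ATF4 and other genes of the integrated stress response, many of them in amino acid supply, were taken from a list of 26, of which 25 were measured. With anti-CD3 alone 12 rose and none fell, beside 13.8% and 18.0% of all genes, with a median of 0.15. The largest were Slc7a5, a transporter of large neutral amino acids, by 2.51, Psat1, of serine synthesis, by 2.34, and the mitochondrial folate enzymes Mthfd2 and Shmt2 by 2.16 and 1.94. Atf4 itself rose by 0.57. The other 13 genes did not pass. Of the 25, 20 lay above 0, and Trib3 (-0.29), Cebpb (-0.21), Ddit3 (-0.12), Atf5 (-0.061) and Cebpg (-0.053) lay below it. Whether ATF4 had a part in the synthetase changes was not tested. With IFN-4a present 15 rose and none fell, beside 12.8% and 14.9% of all genes, with a median of 0.37, led by Slc7a5 at 2.61. IFN-4a in resting cells raised 1, Nupr1, by 0.28, and lowered Ddit4 by 0.63, Eif2ak4, the kinase that senses uncharged transfer RNA, by 0.32 and Shmt2 by 0.27. These were 1 and 3 of 25, beside 4.25% and 8.37% of all genes. In stimulated cells Gpt2 rose by 0.24 and no other gene of the list passed.

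Markers of other blood cells were set beside all genes. Only 1 of the 22 measured, Eomes, stood at 8 or above before centring, against 30.9% of all genes. Genes at 8 or above passed more often with anti-CD3 alone (32.9% rose and 34.2% fell). The shares of all genes are therefore no background of like signal. Of the 22 measured, 3 rose with anti-CD3 alone (Eomes by 1.59, Cd40lg by 1.04 and Itgax by 0.56) and 2 fell (Cd79b by 0.69 and Itga2b by 0.23), which is 13.6% and 9.09% of them, beside 13.8% and 18.0% of all genes. With IFN-4a present the same numbers rose and fell (12.8% and 14.9% of all genes), with IFN-4a in resting cells none passed limma's test (4 had an unadjusted p under 0.05), and in stimulated cells Eomes rose by 0.46. Their part in the synthetase changes was not tested.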

How the data were processed

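Per the labels, total RNA of 12 samples was labelled with biotin and read on single-channel arrays. The authors deposited logarithms, read as log2, whose rows were centred on their medians over the arrays (largest absolute row median 5e-07). Base 10 could not hold, since rows had stood at 8 or above. For the base, the normalization between arrays and the software, no source used here says what was done. Array medians ran from -0.0157 to 0.0165. A row below 8 has a 3.125% chance of passing the decimal step rule. Arrays give no count depth, and their number limits the precision.

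Of 33793 rows, 23525 carried 1 symbol in the platform annotation, 1810 several and 8458 none. Of the 23525, 23328 had an Entrez identifier in RefSeq GRCm38.p6, all with the same symbol. The rows of 1082 genes with several were averaged, leaving 22184 genes. The fit used limma 3.58.1 (R 4.3.3) with a mean per group over all 12 arrays. Its moderated tests were two-sided, with 8 residual and 5.179 prior degrees of freedom, and genes passed where the p adjusted by Benjamini-Hochberg over all genes was under 0.05. The fit was tested on simulated data. The alternatives were quantile normalization, array medians set to 0, array weights, a robust prior, only the groups compared, genes at 8 or above alone, the row with the highest mean, the replicate number as a block, and leaving out each array.

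The members, lists, tests and motifs were chosen with earlier results of these data known, so no test over a list is given. The rule for named genes took every member, with full statistics for Wars, for the 6 largest called changes in each direction, and for both enzymes of an amino acid where one passed. Several of these, such as Rars and Nars with anti-CD3, are printed with their change alone. It also took the 4 largest changes of each other list where named, and the 5 genes most correlated with Wars. Atf4, and the genes of its list below 0 with anti-CD3 alone, were named outside that rule, after their values were seen. Promoter letters came from RefSeq windows of GRCm38.p6.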

Additional observations from a re-analysis of the deposited data

Results flagged for a closer look

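The change of Wars with IFN-4a differed between resting and stimulated cells, by limma's interaction test. Stimulated minus resting, the changes differed by -0.83 on the log2 scale (SE 0.077, adjusted p = 4.01e-05), with 0.81 in resting and -0.018 in stimulated cells. The 3 PBS plus IFN-4a arrays all lay above the 3 PBS arrays, while the arrays of the stimulated groups overlapped. The cause was not tested.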

How the results depend on the processing

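No called result changed direction in any alternative run. Under quantile normalization the cytosolic medians were 0.92 and 0.87 with anti-CD3 in the absence and presence of IFN-4a, the mitochondrial median without IFN-4a was 0.040, 1 of the 35 genes fell with anti-CD3 alone and 123 genes passed the interaction in place of 209. That 1 fell also held with array medians set to 0 and with only the groups compared. With array weights 1396 genes passed for IFN-4a in stimulated cells in place of 771, 1 of the 35 among them, lower. With genes at 8 or above alone, 10 of the 35 fell with IFN-4a in resting cells. In stimulated cells 1 rose and 1 fell, and 383 genes and 2 of the 35 (higher) passed the interaction. Over the 9 mitochondrial genes left, the medians with anti-CD3 were -0.047 without and 0.019 with IFN-4a. Yars2, Rars2, Cars2, Fars2 and Vars2 entered this set through their highest arrays alone. The medians, and the counts that hold these genes, are therefore no check on the class. Of genes called for IFN-4a in stimulated cells 58.0% were higher, against 46.4% with array weights, 42.9% at 8 or above and 68.9% with only the groups compared, and in the interaction 31.6%, against 40.7% with array weights and 50.1% at 8 or above. The cause of these shifts was not tested.

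Leaving out each array in turn gave 1753 to 2976 genes for IFN-4a in resting cells and 137 to 207 in the interaction, both lowest without the second array of PBS plus IFN-4a. It gave 489 to 763 for IFN-4a in stimulated cells, lowest without the second anti-CD3 array and 498 without the third array of anti-CD3 plus IFN-4a. Of the 35 genes, 1 to 3 fell with anti-CD3 in either setting and 0 to 1 with IFN-4a in stimulated cells. The cytosolic median was 1.01 to 1.08 with anti-CD3 alone, -0.095 to -0.048 with IFN-4a in resting cells and 0.049 to 0.10 in the interaction. The mitochondrial median was -0.018 to 0.046 with anti-CD3 alone, -0.21 to -0.15 with IFN-4a in resting cells and -0.13 to -0.037 in stimulated cells. Wars in the interaction ran from -0.87 to -0.80.

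Whether replicate numbers pair the samples cannot be told from these arrays. Of 18 pairs with the same number, 6 had deviations that correlated over 0.1 (r from -0.0719 to 0.2675). Pairs with different numbers ran from -0.2515 to 0.185, and a smaller share of them lay over 0.1. With the number as a replicate block, 7102 and 6242 genes passed with anti-CD3 in the absence and presence of IFN-4a. With IFN-4a in resting and stimulated cells 2911 and 882 passed, and 221 in the interaction. Each count was higher than without the block. Rars was gained with IFN-4a in resting cells and Fars2 lost with anti-CD3 and IFN-4a, and Wars in the interaction stayed at -0.83.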
